A study of Mus musculus with 10 samples.

Results

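Ezrin family and apical scaffold genes are described here as 10 listed mouse genes whose products tie the membrane at the free face of epithelial cells to the actin beneath it. They were taken by name from 29972 annotated genes, and each one's level was the sum over its Ensembl transcripts. All 10 were among the 14765 genes tested, that is, those reaching 1 TPM in 3 or more libraries. TPM is a length-corrected share of a library's transcripts, and scaled TPM below is TPM divided by a factor that aligns the libraries.

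Liver cells of mice were sorted and sequenced as bulk RNA in 10 libraries. Cholangiocytes, which line the bile ducts, were taken from the small peripheral ducts: 4 libraries are labelled hepatocyte-derived (HpC) and 3 are ordinary ones (pC), and 3 more hold hepatocytes (H). HpC and H came from Alb-Cre+/-;Rbpjf/f;Hnf6f/f mice and pC from Rbpjf/f;Hnf6f/f mice, so every group carried the floxed alleles and pC had no Cre. The Cre is driven by the albumin promoter, which is active in hepatocytes and in the embryonic cells from which hepatocytes and bile ducts form. The mice had a mixed C57BL/6, FVB and CD1 background and had labelled ages (P, postnatal day) of P124, P151, P144 and P139 for HpC1 to HpC4, P151, P119 and P142 for pC1 to pC3, and P134, P139 and P139 for H1 to H3. Genotype and cell origin change together between HpC and pC and cannot be told apart. Between either of them and H, cell type cannot be told apart from the way the cells were freed, since HpC and pC were sorted after a further digestion and H straight after perfusion. Between pC and H the genotype differs as well, as H carries Alb-Cre and pC does not. Since H2 and H3 have the same labelled age, and nothing in the labels calls them separate animals, the spread within H may be partly technical. HpC4 has that age and the genotype of H too, and whether it shares an animal with an H library is not stated.

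Ezrin, radixin and moesin (ERM proteins) bind membrane proteins with a head domain and actin filaments with their tail, and open from a folded form to do so. PDZ scaffolds such as NHERF1 (Slc9a3r1), NHERF2 (Slc9a3r2) and PDZK1 join ERM proteins to channels and transporters, while villin and espin bundle the actin core of microvilli. In liver, radixin is known as the main ERM protein of the hepatocyte's canalicular membrane, whereas the apical membrane of bile duct cells carries ezrin.

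Promoter windows from RefSeq (GRCm38.p6), the 250 bases before a listed start, were found for 9 of the 10 genes, in 14 windows. The 4 below belong to the genes on which the results turn: Ezr and Pdzk1ip1 were high in both cholangiocyte groups, and Msn and Pdzk1 differed between those groups. Each is written 5′ to 3′ on the strand of its gene, and capitals mark CpG.
Ezr, chr17:6782781-6783030, minus strand: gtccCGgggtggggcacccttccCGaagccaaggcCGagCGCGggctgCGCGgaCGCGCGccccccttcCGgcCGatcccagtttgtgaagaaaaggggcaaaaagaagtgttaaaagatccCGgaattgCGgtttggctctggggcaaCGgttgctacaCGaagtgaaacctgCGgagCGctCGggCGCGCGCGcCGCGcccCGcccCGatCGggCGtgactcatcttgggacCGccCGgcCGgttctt
Pdzk1ip1, chr4:115088458-115088707, plus strand: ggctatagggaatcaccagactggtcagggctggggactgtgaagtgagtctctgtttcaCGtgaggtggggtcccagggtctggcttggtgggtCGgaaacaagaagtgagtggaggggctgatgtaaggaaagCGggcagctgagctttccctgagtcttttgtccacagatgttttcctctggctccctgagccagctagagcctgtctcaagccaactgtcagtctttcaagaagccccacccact
Msn, chrX:96095795-96096044, plus strand: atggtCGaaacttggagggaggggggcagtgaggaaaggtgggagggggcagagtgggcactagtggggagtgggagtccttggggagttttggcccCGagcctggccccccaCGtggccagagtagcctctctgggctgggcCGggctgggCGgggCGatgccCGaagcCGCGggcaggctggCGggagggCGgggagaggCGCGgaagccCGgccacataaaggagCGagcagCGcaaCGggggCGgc
Pdzk1, chr3:96829815-96830064, plus strand: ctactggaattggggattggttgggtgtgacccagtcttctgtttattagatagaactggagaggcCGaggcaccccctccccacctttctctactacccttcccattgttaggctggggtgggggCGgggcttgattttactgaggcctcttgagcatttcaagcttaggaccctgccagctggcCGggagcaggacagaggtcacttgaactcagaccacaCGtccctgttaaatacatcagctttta

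The Ezr window holds 32 CpG and the Msn window 18, against a median of 6 over 32851 RefSeq windows of the same length. The Pdzk1 window holds 4 and the Pdzk1ip1 window 3. Ezr and Pdzk1ip1, both high in the cholangiocyte groups and low in H as given below, therefore have windows that differ in CpG count. Short motifs were searched on both strands for factors tied to this model or to bile duct cells: RBPJ (GTGGGAA, in 5.42% of all windows), ONECUT (ATTGAT, 6.72%), an HNF1 half-site (GTTAAT, 6.43%), TEAD (GGAATG, 12.6%) and GRHL (AACNGGTT, 1.79%). Of the 14 windows only 1, of Rdx, had a match. It held the HNF1 half-site at bases -47 to -42 and the GRHL letters at -118 to -111 from the listed start, both on the opposite strand, and the motifs do not overlap there.

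Some facts of the whole series bear on every value. The number of reads behind a TPM value is unknown, so values carry no counting error and no floor. Each library had 10232 to 14489 genes at 1 TPM or more. The summed level of 8 hepatocyte markers was 79802 to 91708 scaled TPM in H, 3018 to 5837 in HpC and 1103 to 2629 in pC. That of 8 cholangiocyte markers was 1898 to 2955 in HpC, 5324 to 5520 in pC and 31.2 to 43.7 in H. All 8 were higher in HpC and in pC than in H, which follows the labels. Between HpC and pC the sums part through Spp1 (593 to 1289 against 4056 to 4410), and without it they were 869 to 1875 in HpC and 1089 to 1316 in pC. A pair of HpC libraries stood apart: the 8 acinar pancreas markers summed to 185059 in HpC1 and the 8 stratified squamous markers to 38950 in HpC2. For some genes, but not all, results are therefore also given without both. The acinar sum was also 836 in pC3, against 8.91 in pC1 and 5.93 in pC2, and 129 in HpC3, against 10.7 in HpC2 and 9.09 in HpC4. Leaving out HpC1 and HpC2 does not remove that signal. In such bulk samples, fewer cells of a type and less RNA per cell cannot be told apart.

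**Figure D1:**
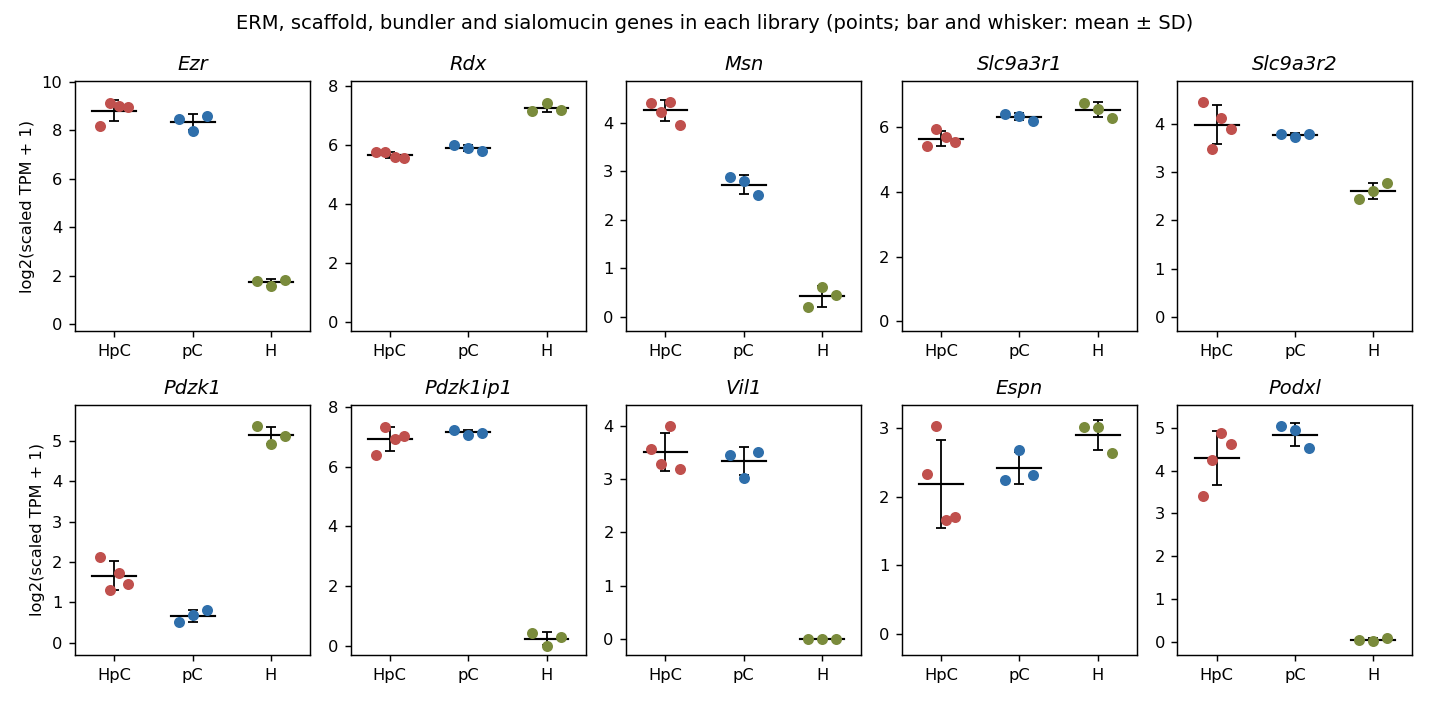
Level of each of the 10 genes in every library, as log2(scaled TPM + 1) on its own vertical axis, for HpC (4 libraries), pC (3) and H (3), with the mean and SD as bar and whisker. Ezr, Msn, Slc9a3r2, Pdzk1ip1, Vil1 and Podxl lie higher in both cholangiocyte groups than in H, Rdx and Pdzk1 lie lower, and Msn and Pdzk1 also separate HpC from pC.

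The ERM genes changed places between the cell types. Ezr dominated in both cholangiocyte groups and Rdx in hepatocytes, and Msn was the only one of the 3 that was called between HpC and pC, where 4.54% of all genes tested were called. Ezr (ENSMUSG00000052397, chr17:6738041-6782784, minus strand, mm10 as are all gene positions here) encodes ezrin. Its scaled TPM was 289, 560.0, 516 and 501 in HpC1 to HpC4, 356, 252 and 387 in pC1 to pC3, and 2.39, 1.97 and 2.57 in H1 to H3. All 7 cholangiocyte libraries stood far above H, while HpC and pC overlapped, HpC1 being the low HpC library. The HpC mean was 467 ± 121 (SD, n = 4), the pC mean 332 ± 70.5 (n = 3) and the H mean 2.31 ± 0.31 (n = 3), and means below are given in the same way. That is 202 times the H mean in HpC and 143.7 times in pC. On the log2(scaled TPM + 1) scale, used for every difference below, Ezr was 7.10 ± 0.24 (SE) higher in HpC than in H (limma, adjusted p = 3.6e-08) and 6.63 ± 0.26 higher in pC than in H (adjusted p = 5.7e-08). Between HpC and pC the difference was 0.47 ± 0.24 (limma, adjusted p = 0.358), with a 95% interval from -0.07 to 1.01, so no difference was called. Without HpC1 and HpC2 it was 0.68 (adjusted p = 0.119), with array weights it passed (0.68, adjusted p = 0.0483), and on TPM as deposited it was 0.04 (adjusted p = 0.958).

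Rdx (ENSMUSG00000032050, chr9:52047173-52088735, plus strand) encodes radixin. Its level was 53.5, 53.4, 47.3 and 47.2 scaled TPM in HpC, 64.2, 58.7 and 55.1 in pC, and 142.2, 173 and 147 in H. The 3 groups did not overlap, in the order HpC, pC, H, although the step from HpC to pC was small. With means of 50.4 ± 3.63, 59.3 ± 4.58 and 154 ± 16.4, Rdx was 1.59 ± 0.13 lower in HpC than in H (difference -1.59, limma, adjusted p = 3.3e-06) and 1.36 ± 0.14 lower in pC (difference -1.36, adjusted p = 1.7e-05). Both depend on the scaling between libraries: on TPM as deposited the differences were -0.47 (adjusted p = 0.183) and 0.19 (adjusted p = 0.609). The scaling moved the median of all genes from 0.87 to 0.08 in HpC minus H and from 1.2 to 0.11 in pC minus H. Relative to the median, Rdx was at -1.67 with and -1.34 without scaling in HpC, and at -1.47 and -1.01 in pC. HpC minus pC for Rdx was -0.23 ± 0.13 (limma, adjusted p = 0.405). The two-sided exact permutation test gave p = 0.0286 there, the smallest that the 35 splits of 4 and 3 libraries allow. That p is unadjusted and mainly restates that HpC and pC did not overlap, as held for 16.5% of all genes tested.

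Msn (ENSMUSG00000031207, chrX:96096042-96168552, plus strand) encodes moesin, the ERM protein best known from endothelium and leukocytes. It measured 20.4, 17.6, 20.4 and 14.6 scaled TPM in HpC, 6.34, 5.92 and 4.68 in pC, and 0.15, 0.54 and 0.36 in H. Every HpC library was above every pC library, and every pC library above every H library. The means of 18.2 ± 2.77 and 5.65 ± 0.86 differed 3.23-fold, or by 1.53 ± 0.18 on the log2 scale (limma, adjusted p = 0.0015, 95% interval 1.13 to 1.93), and Msn was higher in 4 of 4 HpC libraries. The call held under all 20 alternatives tried, between 1.17 and 1.67 (adjusted p 0.00026 to 0.0447), and was 1.51 (adjusted p = 0.0113) without HpC1 and HpC2. Against H, where the mean was 0.35 ± 0.20, Msn was higher by 3.83 ± 0.18 in HpC (limma, adjusted p = 1.1e-07) and by 2.30 ± 0.19 in pC (adjusted p = 3.4e-06).

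Because other cell types carry moesin, their markers were read beside it. None of 8 endothelial markers (7 tested) and none of 8 leukocyte and Kupffer cell markers (3 tested) was called between HpC and pC by limma, and 0 were at an unadjusted p under 0.05. The endothelial sum was 7.31 to 21.3 scaled TPM in HpC and 7.85 to 11.2 in pC, and the leukocyte sum 2.92 to 18.2 and 5.37 to 8.67. Of 8 stellate cell and fibroblast markers (7 tested) 1 was called higher in HpC, Col3a1, and 3 were at an unadjusted p under 0.05, all higher. The sum was 22.6 to 92.4 in HpC against 20.7 to 30.9 in pC. Of 8 mesothelial markers (all tested) 3 were higher in HpC, Msln, Upk1b and Wt1, and 1 was lower, Gpm6a, while 7 were at an unadjusted p under 0.05, 6 of them higher. Of all genes tested, 4.54% were called between HpC and pC (1.99% higher and 2.55% lower), and the share at an unadjusted p under 0.05 is not given here. The mesothelial sum was 37.2 to 55.8 in HpC against 24.6 to 32.8 in pC, with no overlap and in the direction of Msn. No marker of these 4 lists was at 0 in every HpC or in every pC library, and the part of any of these cell types in the Msn difference was not tested.

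Within a library, the shares of the 3 ERM genes do not depend on the scaling between libraries. Ezr took 79.6%, 88.7%, 88.4% and 89.0% of the ERM TPM in HpC1 to HpC4, 83.5%, 79.6% and 86.6% in pC, and 1.65%, 1.12% and 1.71% in H. Rdx took 98.0% to 98.6% in H, 8.10% to 14.7% in HpC and 12.3% to 18.5% in pC, so the leading ERM transcript differed between H and both cholangiocyte groups in every library. Msn made up 2.59% to 5.61% in HpC, 1.05% to 1.87% in pC and 0.101% to 0.306% in H. In scaled TPM, the ERM sum was 535 ± 118 in HpC, 397 ± 69.9 in pC and 157 ± 16.3 in H. Unlike the shares, these sums depend on the scaling between libraries. They also include a short non-coding Ezr transcript, described below, that holds most of the Ezr TPM in HpC and pC. No order of the groups in total ERM level is therefore drawn from them.

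**Figure D2:**
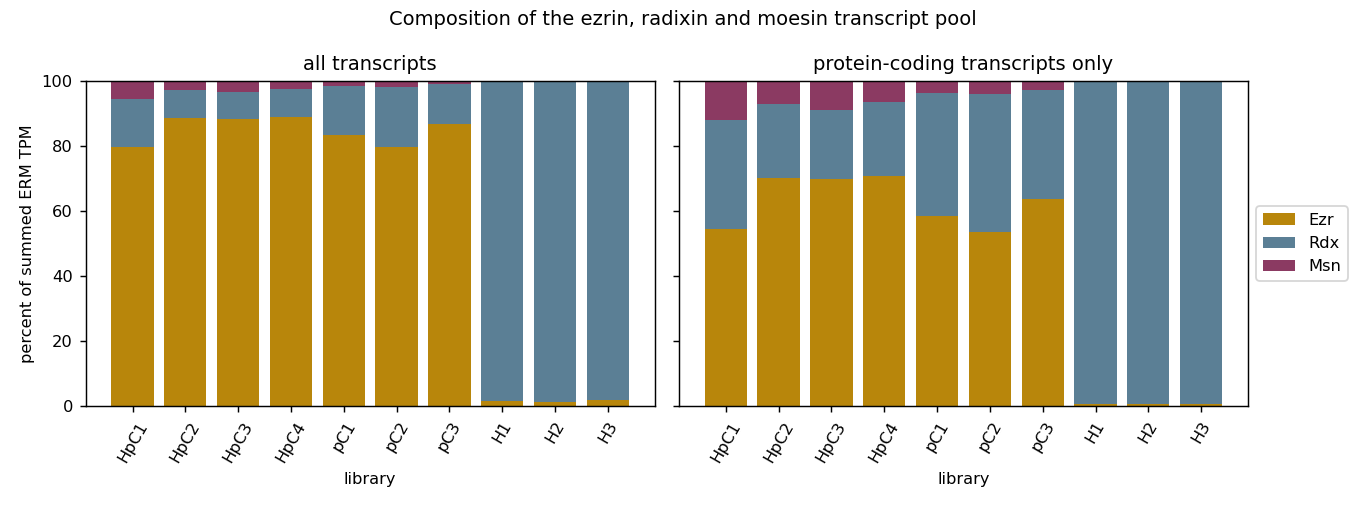
Share of the summed TPM of Ezr, Rdx and Msn taken by each, in percent, as 1 stacked bar per library in each panel. The left panel is over all transcripts and the right over protein-coding transcripts only. On the left, Ezr fills 79.6% to 89.0% of the bar in the 7 HpC and pC libraries, and Rdx 98.0% to 98.6% in the 3 H libraries. On the right, Ezr fills 54.4% to 70.8% in HpC and 53.4% to 63.6% in pC, and Rdx 99.3% to 99.5% in H.

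The size of the Ezr share, and of the ERM sum in HpC and pC, rests in part on a short transcript model. Ezr-202, a processed transcript of 643 bases, held 70.0% to 70.9% of Ezr TPM in HpC and 70.8% to 73.1% in pC, and the protein-coding Ezr-201 of 3164 bases the rest. Of the 50-base words of Ezr-202, 78.96% also occur in Ezr-201, so reads of 50 bases split poorly between the 2, and TPM gives a short model a high level for few reads. Weighted by length, Ezr-201 held 66.9% to 67.8% in HpC. With protein-coding transcripts alone, the mean Ezr share of the ERM sum was 66.3% in HpC, 58.5% in pC and 0.529% in H, and that of Rdx 25.1%, 38.1% and 99.4%. No 50-base word of Ezr, Rdx or Msn was shared with another gene.

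Among the PDZ scaffolds, the hepatocyte libraries were marked by Pdzk1, all 3 groups held Slc9a3r1, and Slc9a3r2 was higher in both cholangiocyte groups. Slc9a3r1 (ENSMUSG00000020733, chr11:115163341-115181181, plus strand) encodes NHERF1, which binds CFTR and the ERM head domain. Its level was 41.1, 59.5, 50.4 and 45.3 scaled TPM in HpC, 83.1, 79.8 and 71.8 in pC, and 106, 92.6 and 76.3 in H. HpC lay below both other groups without overlap, and pC and H overlapped. HpC (49.1 ± 7.92) was below pC (78.2 ± 5.86) by a difference of -0.67 ± 0.17 with a 95% interval from -1.05 to -0.30, which missed the threshold (limma, adjusted p = 0.0526). It passed in 4 of the 20 alternatives: with a filter of 5 TPM, without HpC2, with array weights, and with protein-coding transcripts alone. The two-sided exact permutation p was 0.0286, as for Rdx, Msn and Pdzk1, and again mainly restates that the groups did not overlap. HpC was also lower than H (91.5 ± 14.6), by -0.89 ± 0.17 (limma, adjusted p = 0.0011), but the sign turned to 0.23 on TPM as deposited, which relative to the median of all genes is -0.64. For pC minus H the value was -0.21 ± 0.18 (limma, adjusted p = 0.327), and 1.33 (adjusted p = 0.0073) on TPM as deposited, or 0.13 relative to the median.

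Slc9a3r2 (ENSMUSG00000002504, chr17:24639286-24650327, minus strand) encodes NHERF2. In scaled TPM it was at 20.9, 10.2, 16.6 and 13.9 in HpC, at 13.0, 12.2 and 12.8 in pC, and in H at 4.47, 5.15 and 5.82. All HpC and pC libraries were above H, and the HpC range enclosed pC. The difference from H was 1.38 ± 0.21 in HpC (limma, adjusted p = 0.00027) and 1.16 ± 0.23 in pC (adjusted p = 0.0014). Between HpC and pC it was 0.22 ± 0.21 (adjusted p = 0.644, 95% interval -0.25 to 0.69), and -0.19 on TPM as deposited.

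Pdzk1 (ENSMUSG00000038298, chr3:96829284-96870926, plus strand) encodes PDZK1, which in hepatocytes holds the HDL receptor SR-BI at the membrane. It was at 39.9, 29.3 and 33.7 scaled TPM in H, but at 3.36, 1.47, 2.33 and 1.75 in HpC and 0.42, 0.61 and 0.74 in pC. H was far above both cholangiocyte groups, and each HpC library was above each pC library. Relative to H (34.3 ± 5.34), the difference was -3.48 ± 0.21 in HpC (limma, adjusted p = 4.8e-07) and -4.47 ± 0.23 in pC (adjusted p = 1.8e-07). HpC (2.23 ± 0.84) exceeded pC (0.59 ± 0.16) by 0.99 ± 0.21, in 4 of 4 libraries (limma, adjusted p = 0.0273, 95% interval 0.52 to 1.46). The ratio of means was 3.77, on low levels that the added 1 compresses. This call was lost in 8 of 20 alternatives, among them TPM as deposited (adjusted p = 0.127), HpC and pC alone (0.0699), without HpC3 (0.0777) and without pC1 (0.123), pC2 (0.108) or pC3 (0.0607). Without HpC1 and HpC2 it was 0.98 (adjusted p = 0.032).

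Hepatocyte markers were read beside Pdzk1, each gene as a percentage of its own H mean. Pdzk1 was at 9.80%, 4.27%, 6.79% and 5.10% in the 4 HpC libraries, and the pC libraries had 1.22%, 1.77% and 2.16%. The 8 markers had a median of 4.79% in HpC1, 1.88% in HpC2, 2.27% in HpC3 and 0.325% in HpC4, and of 1.5%, 1.46% and 0.321% in pC1 to pC3. Among them, 0, 1, 1 and 0 lay above Pdzk1 in HpC1 to HpC4, and 4, 3 and 1 in pC1 to pC3. Only Alb, which made up 81.9% of their summed level in HpC, was higher in each HpC library than in any pC library, and the other markers overlapped. None of the 8 was called between HpC and pC by limma, 2 (Alb and Fgb) were higher at an unadjusted p under 0.05, none was at 0 in every library of either group, and the part of hepatocyte RNA in the Pdzk1 difference was not tested. Low Pdzk1 values are uncertain also because Pdzk1 overlaps Gpr89 on the other strand. Pdzk1-201 shares 51.9% of its 50-base words with Gpr89 and the antisense 4930442L01Rik, and Gpr89 was at 4.50 to 7.36 scaled TPM in HpC and 4.07 to 6.25 in pC.

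**Figure D3:**
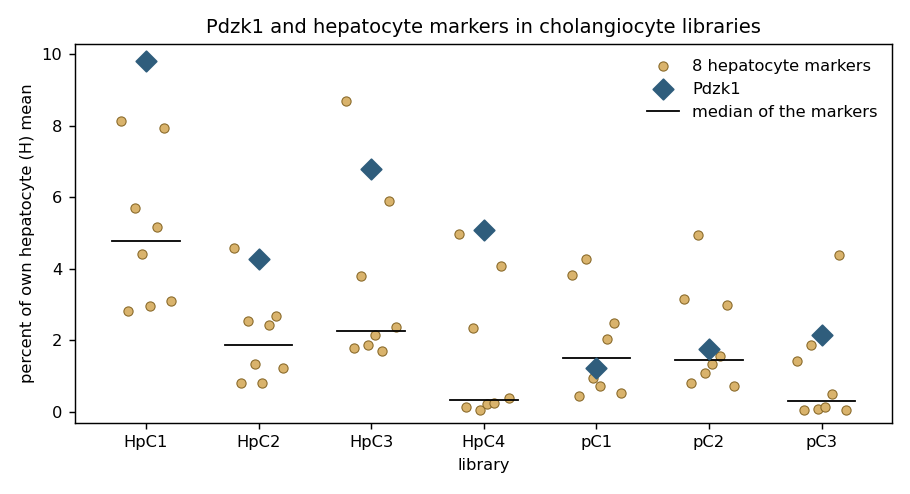
Pdzk1 (diamonds), 8 hepatocyte markers (circles) and the median of the markers (lines) in each HpC and pC library, each gene in percent of its mean in the H libraries. Pdzk1 is at 4.27% to 9.80% in HpC and 1.22% to 2.16% in pC, while the marker medians run from 0.325% to 4.79% and from 0.321% to 1.5%.

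As shares of the summed TPM of the 3 scaffolds, Slc9a3r1 led in every group, with means of 73.4% in HpC, 85.5% in pC and 69.7% in H. Pdzk1 made up 26.3% in H, 3.36% in HpC and 0.654% in pC, and Slc9a3r2 4.02%, 23.2% and 13.9%. The second scaffold was therefore Pdzk1 in H and Slc9a3r2 in the cholangiocyte groups. In scaled TPM, the scaffold sum was 66.7 ± 4.55 in HpC, 91.5 ± 5.70 in pC and 131 ± 17.3 in H. Unlike the shares, these sums depend on the scaling between libraries. The log2 difference of Slc9a3r1, their largest part, changed sign against H on TPM as deposited. It went from -0.89 to 0.23 in HpC (limma, adjusted p = 0.581 as deposited) and from -0.21 to 1.33 in pC (adjusted p = 0.0073). No order of the groups in total scaffold level is therefore drawn from the sums.

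Pdzk1ip1 (ENSMUSG00000028716, chr4:115088708-115093899, plus strand) encodes MAP17, a small membrane protein that binds PDZK1. Its level was 83.0, 161, 122 and 131 scaled TPM in HpC, 150.3, 133 and 140.4 in pC, and 0.35, 0 and 0.24 in H. It was thus high exactly where its partner Pdzk1 was low. The difference from H was 6.68 ± 0.21 in HpC (limma, adjusted p = 2.7e-08) and 6.90 ± 0.23 in pC (adjusted p = 5.3e-08). HpC (124.2 ± 32.2) and pC (141 ± 8.56) overlapped, with a difference of -0.22 ± 0.21 (limma, adjusted p = 0.639, 95% interval -0.70 to 0.25). Protein-coding models took only 4.99% to 7.57% of its TPM in HpC and 4.13% to 6.22% in pC, and with those alone the difference from H was 3.12 in HpC and 3.09 in pC (limma, adjusted p = 4.5e-07 and 7.6e-07), and HpC minus pC was 0.04.

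Of the actin bundlers, Vil1 was called higher in both cholangiocyte groups than in H, and Espn was called in no comparison. Vil1 (ENSMUSG00000026175, chr1:74409376-74435559, plus strand), which encodes villin, was at 10.8, 8.74, 15.0 and 8.17 scaled TPM in HpC and 10.03, 7.17 and 10.4 in pC, and was listed at 0 in all 3 H libraries. It was higher in both groups than in H (limma, adjusted p = 4.5e-07 for HpC and 9.6e-07 for pC), and no fold is given against 0. HpC (10.7 ± 3.09) and pC (9.21 ± 1.78) overlapped, with a difference of 0.17 ± 0.21 (adjusted p = 0.718, 95% interval -0.30 to 0.65), and -0.21 on TPM as deposited. Vil1 overlaps Usp37 on the other strand, which was at 3.44 to 5.08 in HpC and 1.77 to 2.02 in H.

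Espn (ENSMUSG00000028943, chr4:152120331-152152371, minus strand) encodes espin. In scaled TPM it measured 4.03, 7.19, 2.16 and 2.27 in HpC, then 3.75, 5.39 and 3.97 in pC, and in H 7.11, 7.08 and 5.22. The groups overlapped throughout, and HpC2 alone among the HpC libraries reached the level of H. No comparison passed the threshold. HpC minus H was -0.71 ± 0.31 (limma, adjusted p = 0.0754), pC minus H -0.48 ± 0.34 (adjusted p = 0.244) and HpC minus pC -0.23 ± 0.31 (adjusted p = 0.753). The first passed without HpC2 (-0.89, adjusted p = 0.0069) and without HpC1 and HpC2 (-1.12, adjusted p = 0.0015), yet was 0.21 on TPM as deposited. pC minus H was 0.82 on TPM as deposited, with an adjusted p of 0.0574 by limma. Of the 19 annotated transcripts of Espn, 3 were at 0 in every library, and its TPM was spread over several of the others.

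Podxl (ENSMUSG00000025608, chr6:31519488-31563981, minus strand) encodes podocalyxin, a sialomucin that binds ezrin through NHERF proteins. In scaled TPM it was at 9.68, 18.1, 28.5 and 23.5 in HpC, at 31.7, 30.0 and 22.1 in pC, and in H at 0.03, 0.02 and 0.07. All cholangiocyte libraries stood above H, and HpC1 was the lowest of them. The difference from H was 4.24 ± 0.31 in HpC (limma, adjusted p = 1.3e-06) and 4.78 ± 0.33 in pC (adjusted p = 9.7e-07). HpC (20.0 ± 8.08) minus pC (27.95 ± 5.15) was -0.55 ± 0.31 (limma, adjusted p = 0.396, 95% interval -1.23 to 0.14) and -0.05 (adjusted p = 0.936) without HpC1 and HpC2. In HpC, 14.5% to 48.6% of its TPM fell on Podxl-202, a transcript of 344 bases, and in pC 39.1% to 49.1%.

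Counted over the 10 genes, HpC against pC gave 2 calls, Msn and Pdzk1, both higher in HpC, while 4.54% of all genes tested were called (1.99% higher and 2.55% lower). The groups did not overlap for 4 of the 10, Rdx, Msn, Slc9a3r1 and Pdzk1, against 16.5% of all genes. HpC against H gave 9 calls, 6 higher and 3 lower, against 59.9% of all genes (30.7% higher and 29.2% lower). The groups did not overlap for the same 9, against 60.5% of all genes. pC against H gave 8 calls, 6 higher and 2 lower, against 59.6% (31.1% higher and 28.6% lower), and 8 did not overlap, against 70.3%. The median difference over the 10 genes was -0.02 in HpC minus pC (all genes -0.01), 2.44 in HpC minus H (all genes 0.08) and 1.73 in pC minus H (all genes 0.11). On TPM as deposited the calls were 1 higher and 0 lower, 6 higher and 1 lower, and 7 higher and 1 lower, and 26.1%, 83.3% and 88.2% of all called genes were higher, against 43.8%, 51.2% and 52.1% with scaling. The HpC minus H median rests in part on Vil1 and the pC minus H median in part on Msn, whose values there depend on the added 1. Each pair of comparisons shares a group of libraries.

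**Figure D4:**
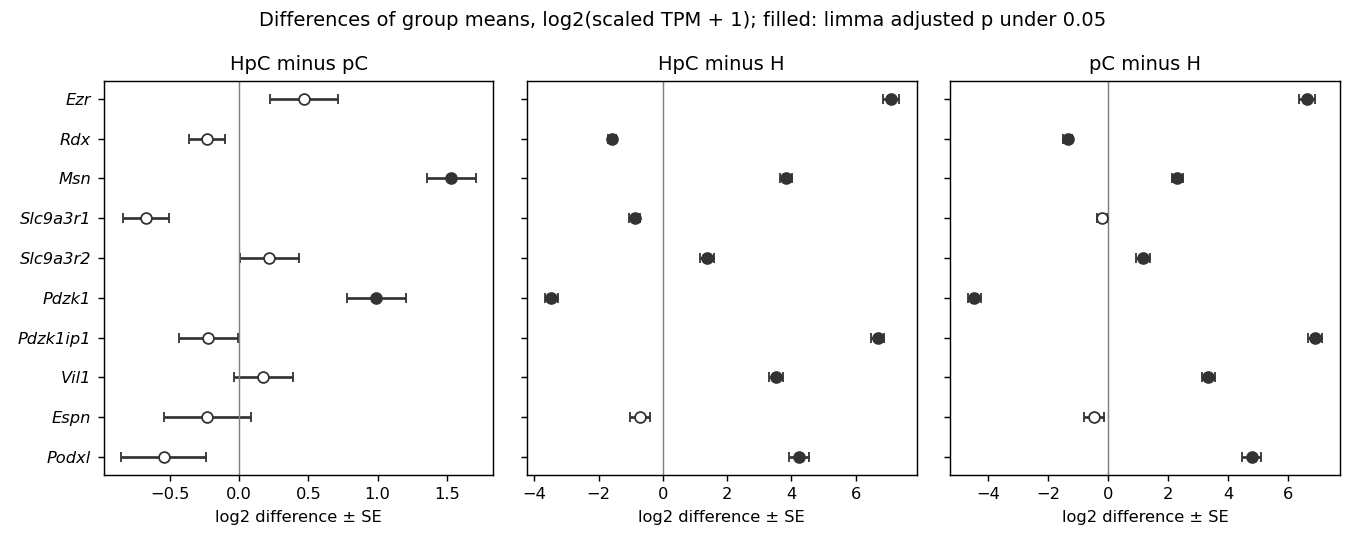
Difference in log2(scaled TPM + 1) for each of the 10 genes in the 3 comparisons, points with SE as whiskers, and filled points for an adjusted p under 0.05. In HpC minus pC the filled points are Msn at 1.53 and Pdzk1 at 0.99, whereas against H the values run from -4.47 for Pdzk1 to 7.10 for Ezr. Msn, Pdzk1ip1, Vil1 and Podxl were under 1 scaled TPM in every H library, so their points against H depend on the added 1. The ratio of the HpC mean to the H mean was 633 for Pdzk1ip1 and 493 for Podxl, but 202 for Ezr.

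Over the 10 libraries, the genes whose log2 level was most like that of Ezr, taken from the 2270 genes that average 5 or more on that scale, were Krt19 (Pearson r = 0.998), Flna (0.996), Epcam (0.996), Ccn2 (0.995) and Hnrnpa1 (0.995). Krt19, a keratin of bile duct cells, averaged 673 in HpC, 456 in pC and 0.28 in H, in scaled TPM. Among the 10 genes themselves Ezr was most like Pdzk1ip1 (r = 0.995), Podxl was most like Pdzk1ip1 (0.986), and Rdx and Pdzk1 were most like each other (0.912). Slc9a3r1 (0.731, with Rdx) and Espn (0.664, with Slc9a3r1) had the loosest matches. These values describe 10 points that share the split between H and the cholangiocyte libraries.

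Lists of genes around this group were read in the same fit. Of 24 genes of the microvillus core and tip, 19 were tested. In HpC against pC 2 were higher and none lower by limma, beside 4.54% of all genes tested that were called (1.99% higher and 2.55% lower). The list had a median of -0.17 (all genes -0.01). At an unadjusted p under 0.05 there were 7, of which 2 were higher, and the share of all genes at that p is not given here. Pls1, which encodes the actin bundler plastin 1, was at 16.3, 8.43, 17.6 and 19.1 scaled TPM in HpC, 5.06, 1.58 and 5.32 in pC, and 17.3, 28.2 and 23.8 in H. HpC thus lay apart from pC and overlapped H, and the HpC minus pC difference was 1.77 ± 0.36 (limma, adjusted p = 0.0225). Calml4, a calmodulin-like light chain of the microvillar tip, was at 12.2, 6.45, 9.40 and 7.33 in HpC and 2.69, 2.68 and 3.55 in pC, without overlap, a difference of 1.28 ± 0.24 (adjusted p = 0.0148). Pls1 lost its call in 6 of 20 alternatives, among them TPM as deposited (adjusted p = 0.0986) and without HpC1 (0.0503), HpC3 (0.0663) or pC2 (0.0827). Calml4 lost it in 4, among them TPM as deposited (0.0917) and without pC1 (0.0664) or pC2 (0.0756). On TPM as deposited none of this list was higher and 1, Ush1c, was lower.

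Against H, 12 microvillus genes were higher and 3 lower in HpC, with a median of 1.28, and 13 were higher and 4 lower in pC, with a median of 1.32. Of all genes tested, 59.9% were called in HpC minus H (30.7% higher) and 59.6% in pC minus H (31.1% higher). Those with the largest rises were Gsn (4.30 in HpC, 3.10 in pC), Eps8l1 (3.73 and 4.42), Vill (3.44 and 2.27) and Eps8 (3.39 and 4.30), which encode actin cappers and severing proteins or their relatives. Cdhr5, an adhesion protein of microvillar tips, was lower, at -3.14 in HpC and -2.48 in pC, and so was its scaffold Anks4b, at -2.73 and -2.89. Pls1 was lower in pC than in H (-2.36, limma, adjusted p = 0.00045), a call that was lost on TPM as deposited (adjusted p = 0.0812). For HpC minus H, Pls1 was at -0.59 (adjusted p = 0.186).

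Of 16 ERM relatives and regulators, all were tested and 0 were called between HpC and pC by limma, with 2 (Stk10 higher, Ppp1r12a lower) at an unadjusted p under 0.05. Against H, 8 were higher and 1 lower in HpC (median 0.56), and 6 higher and 1 lower in pC (median 0.41). A called share of 9 and 7 of 16 is no larger than that of all genes tested, 59.9% and 59.6%. On TPM as deposited 14 were higher and 0 lower in each, where 7553 and 9361 of the 14765 genes were called higher. Kinases and phosphatase subunits that act on the ERM tail were among those higher: Map4k4 by 2.47 in HpC and 2.5 in pC, Rock2 by 1.30 and 1.15, Stk26 by 1.32 and 1.27, and Ppp1r12a by 1.23 and 1.58. Rap1a, a small GTPase, was lower, at -1.07 and -1.15. Neither call held on TPM as deposited, at -0.03 for HpC (limma, adjusted p = 0.922) and 0.27 for pC (adjusted p = 0.406).

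Of 16 membrane partners of ERM proteins and PDZ scaffolds, 12 were tested. HpC against pC gave 2 higher and 1 lower, beside 4.54% of all genes tested that were called (1.99% higher and 2.55% lower). Abcc2, the canalicular conjugate pump that needs radixin in hepatocytes, was at 12.7, 6.69, 7.49 and 6.48 scaled TPM in HpC and 0.88, 2.49 and 0.63 in pC, against 198 to 229 in H. All HpC libraries were above pC, by 2.04 ± 0.29 (limma, adjusted p = 0.0036), and the call held under all 20 alternatives. As a percentage of its H mean Abcc2 was 5.96, 3.15, 3.52 and 3.05 in HpC and 0.415, 1.17 and 0.297 in pC. Of the 8 hepatocyte markers on the same footing, 2, 1, 3 and 2 lay above it in HpC1 to HpC4, and 8, 5 and 4 in pC1 to pC3. The part of hepatocyte RNA in this difference was not tested. Cd44, a hyaluronan receptor that binds ERM proteins, was at 74.0, 204, 71.5 and 56.1 in HpC and 18.7, 9.20 and 34.1 in pC, a difference of 2.22 ± 0.48 (adjusted p = 0.0277). That call was lost in 9 of 20 alternatives, among them without pC2 (1.76, adjusted p = 0.118), without pC1 (adjusted p = 0.0965), without HpC3 (0.0555) and without HpC1 and HpC2 (1.79, adjusted p = 0.0777). Abcb1a, a drug efflux pump, was lower in HpC, at 12.3, 11.1, 18.7 and 19.7 against 39.0, 41.5 and 38.3, without overlap. Its difference was -1.34 ± 0.24 (limma, adjusted p = 0.0131), and -0.97 (adjusted p = 0.0615) without HpC1 and HpC2, while the call was also lost without pC1 (adjusted p = 0.0526) or pC2 (0.068).

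Against H, 9 of the 12 partners were higher and 3 lower in HpC (median 1.46), and 8 higher and 3 lower in pC (median 1.85), beside the 59.9% and 59.6% of all genes that were called. Cd44 was higher by 6.22 in HpC and 4.0 in pC, the mucin Muc1 by 5.39 and 6.13, the adhesion molecule Icam1 by 4.25 and 4.04, and the chloride channel Cftr, a partner of NHERF1, by 3.47 and 4.48. The 3 that were lower were the bile salt pump Abcb11 (-5.43 in HpC, -6.39 in pC), Abcc2 (-4.56 and -6.60) and Scarb1, which encodes SR-BI (-4.00 and -4.05). Scarb1, the partner of Pdzk1, was thus lower in the same 2 groups as Pdzk1 itself.

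**Figure D5:**
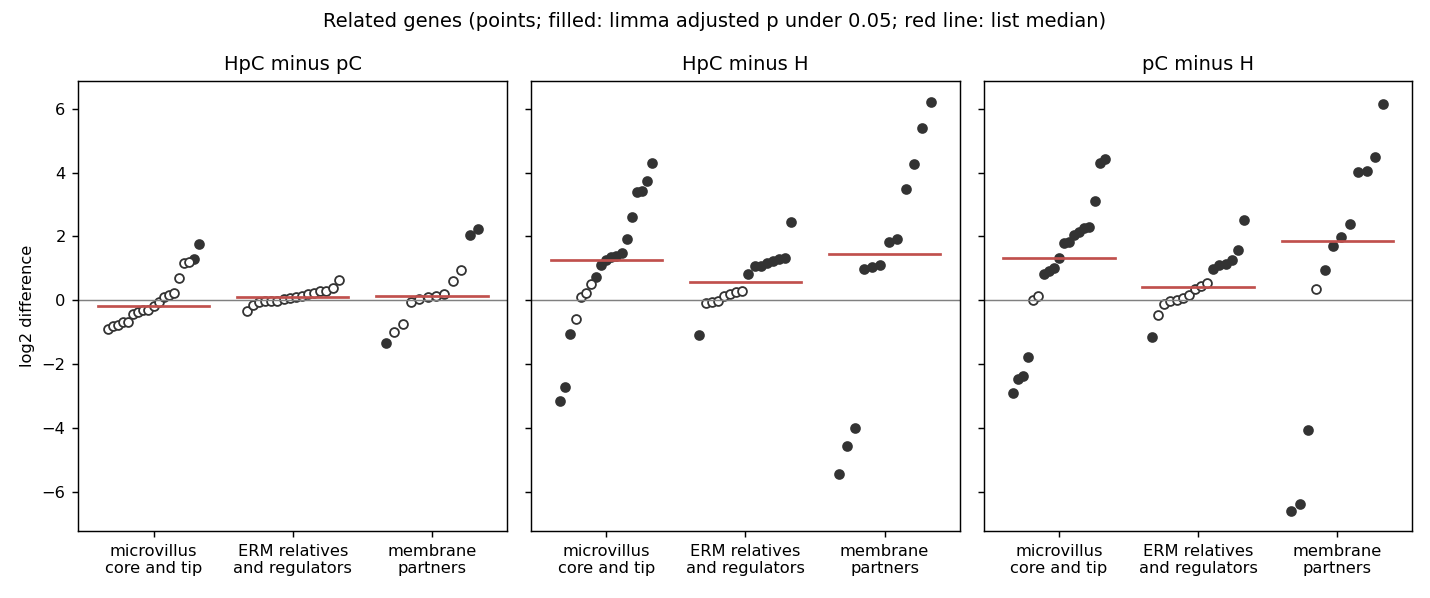
Difference in log2(scaled TPM + 1) for each tested gene of the 3 related lists in the 3 comparisons, 1 point a gene. Between HpC and pC 5 points passed the threshold, Pls1, Calml4, Cd44 and Abcc2 higher and Abcb1a lower, and against H most points of the microvillus and partner lists did.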

How the data were processed

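RNA-seq of 10 sorted mouse liver cell libraries, with 50-base single-end reads, was analysed. The authors deposited 1 table per library with TPM per Ensembl transcript (85276 transcripts). The submitters' processing notes name kallisto, DESeq and mm10; versions and roles are not given in the sources used here. TPM holds no sequencing depth, so no count test or interval could be made. Transcripts were joined by identifier to GENCODE M21, and 81927 matched; the 3349 others held 4.22% to 9.06% of a library's TPM and were left out. TPM was summed per gene and divided by trimmed-mean factors (30% of log ratios and 5% of levels trimmed at each end), 0.668 to 1.61 in HpC, 1.53 to 1.59 in pC and 0.499 to 0.585 in H. Genes with at least 1 TPM in 3 libraries were kept, and log2(scaled TPM + 1) was fitted by limma (version 3.58.1) with a mean-dependent prior variance, all 10 libraries in 1 fit, with Benjamini-Hochberg adjustment at 5% over 14765 genes. The fit was also run on simulated data, with independent noise around a common mean per gene and set changes added to some genes. Those data lack the differences in composition between the real libraries. Fold changes on this scale understate changes of low genes. The 10 genes, the related lists and the tests were chosen with earlier results of these data known. Of the related genes, all called in HpC against pC were named, and against H up to 3 in each direction per list, by the largest difference among genes called without overlap; Ush1c, Stk10 and single markers were named after their values were seen. Alternatives were TPM as deposited, median-of-ratios factors, pseudocount 0.1, no filter or 5 TPM, the compared groups alone, leaving out each library or HpC1 and HpC2 together, a replicate block, array weights and protein-coding transcripts alone. Libraries are replicates by label; the ages within HpC and within pC all differ.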

Additional observations from a re-analysis of the deposited data

Results flagged for a closer look

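In the HpC group, 37 values (the 10 genes, their named relatives and the shares) were examined for a library set apart from the other 3, by the gap to its neighbour over the range of the group; chance picks about 1 in 20, and 6 were picked. In HpC1 the Ezr share of the ERM TPM was 79.6% while the others ran up to 89.0%, and the Rdx share was 14.7% while the lowest was 8.10%. These 2 shares sum to nearly all of the ERM TPM and so mirror each other. Also in HpC1, Abcc2 was at 12.7 scaled TPM (lowest library 6.48) and Scarb1 at 32.9 (lowest 10.6). In HpC2, Cd44 was at 204 scaled TPM (lowest 56.1) and Stk26 at 4.35 (lowest 0.888). HpC1 is the library with the highest acinar pancreas marker sum and HpC2 the one with the highest squamous marker sum. The part of either in these values was not tested.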

How the results depend on the processing

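The directions of Ezr, Msn and Pdzk1 held in all 3 comparisons under the alternatives run, and the counts of the 10 genes called against H stayed within 1.5 times of 9 and 8. In HpC against pC, 671 genes were called with all libraries in the fit, 393 with only those groups and 1797 with array weights; leaving out each library in turn gave 271 (without pC2) to 794 (without HpC4), with 330 without pC1, 415 without HpC3 and 443 without pC3. Of the 10 genes, 2 were called there, but 1 on TPM as deposited, with no filter or with only those groups, 4 with array weights, and 1 to 3 when each library was left out. A replicate block gave 573 genes and 1 of the 10 (Msn). Deviations from the group means correlated at -0.05 to 0.08 between same-numbered libraries and at -0.18 to 0.17 between the others. Such values cannot tell whether the numbers pair libraries. The labelled ages of same-numbered libraries differ. On TPM as deposited the sign turned for Slc9a3r2 (-0.19) and Vil1 (-0.21) in HpC minus pC, Slc9a3r1 (0.23) and Espn (0.21) in HpC minus H, and Rdx (0.19), Slc9a3r1 (1.33), Espn (0.82) and Rap1a (0.27) in pC minus H. With protein-coding transcripts alone it turned for Pdzk1ip1 in HpC minus pC (0.035) and Espn in pC minus H (0.093). Apart from what the scaling itself shifts in all genes, the cause of these changes was not tested. Unknown read depth limits statements on levels under 1 TPM, which cover 4 of the 10 genes in H and Pdzk1 in pC.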
